A study of Mus musculus with 2 samples.

Results

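The 6 core genes of the hemidesmosome, Itgb4, Itga6, Col17a1, Dst, Plec and Cd151, were followed across single cells of mouse buccal epithelium, the lining of the cheek. They were taken by symbol from the 27998 genes counted, and all 6 were found. Buccal epithelium of 10 C57BL/6 female mice aged 12 weeks was pooled and sorted for high surface CD104, the β4-integrin chain that Itgb4 encodes. The sorted cells were profiled on the 10x Chromium platform, which counts unique molecular identifiers (UMIs), each standing for 1 captured transcript molecule. The labels describe 2 technical replicates, here library 1 and library 2, so there was 1 independent sample, with no treated group and no animal kept apart. Because the gate was set on the protein of Itgb4, all values describe cells inside that gate, and the mRNA of Itgb4 was compared only among cells that had passed it.

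Hemidesmosomes rivet basal keratinocytes to the basement membrane. Outside the cell, the integrin made of the α6 chain (Itga6) and the β4 chain (Itgb4) holds laminin, and collagen XVII (Col17a1), a collagen that spans the membrane, reaches into the same layer. Inside the cell, the plakins plectin (Plec) and BP230, the epithelial product of Dst, tie the integrin and collagen XVII to keratin filaments, while CD151 is a tetraspanin that sits in the membrane beside laminin-binding integrins. In stratified epithelium these junctions face the basement membrane, and cells that leave the basal layer turn from the keratins Krt5 and Krt14 to others, which in the oral lining are Krt4 and Krt13.

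A cell needed 500 genes or more, and a mitochondrial share of no more than 10%, to enter, which left 15470 of 16291 barcodes: 6907 of 7215 in library 1 and 8563 of 9076 in library 2. Kept cells had a median of 7690 UMIs in library 1 and 6709 in library 2. Each cell was placed by the sum of Krt4 and Krt13 in UMIs per 10000 of its own UMIs, into the bins below 40, 40 to 80, 80 to 150, 150 to 350 and 350 or more. A cell was called cycling where Top2a, Cenpf, Ube2c and Ccnb1, genes of late cell cycle, summed to at least 10 UMIs per 10000, which held for 1597 cells of library 1 and 2114 of library 2. From the lowest bin to the highest, the non-cycling cells numbered 1352, 1041, 504, 968 and 1445 in library 1, and 1392, 1222, 628, 1167 and 2040 in library 2. The levels below are UMIs of a gene summed over the cells of a bin, per 10000 UMIs of the same cells. The basal marker list (Krt5, Krt14, Krt15, Trp63 and Itgb4) summed to 17.6 and 19.95 UMIs per 10000 in the highest bin, against 176 and 180 in the lowest, in library 1 and library 2 in that order, as everywhere below. Total UMIs per cell moved with the bins too, with a median of 14721 and 11961 at 350 or more, against 5987.5 and 4942 below 40. Cells with immune markers numbered 23 and 39, cells with glandular markers 30 and 21, and none reached the level set for a fibroblast, endothelial, pericyte, Schwann or melanocyte cell. The immune list (8 genes) summed to 0.117 and 0.136 UMIs per 10000 at 350 or more, against 6.35 and 14.1 below 40. The fibroblast list (5 genes: Col1a1, Col1a2, Col3a1, Dcn and Lum) summed to 0.0744 and 0.113 at 350 or more, where Col1a1, Col3a1 and Lum were at 0. Below 40 it summed to 4.11 and 4.27, with Col3a1 and Lum at 0. The level set for a fibroblast cell summed Col1a1, Col1a2, Col3a1 and Lum and left Dcn out. The libraries shared 104 barcodes.

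Because technical splits allow no test between conditions, genes were called by size alone. A gene was called lower or higher where each library put it 1.5-fold or more (log2 of 0.58) to that side and its level, averaged over both sides, reached 0.2 UMIs per 10000. All 6 genes passed that minimum in every comparison that was called. Itgb4, at 0.121 and 0.114 in non-cycling cells at 350 or more, passed it there only through the cells below 40. Intervals are 95% exact intervals and cover counting error only. Levels were not compared between genes, since how well the 3′ end of each transcript is captured was not known.

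The genes lie apart in the mouse genome (GRCm38, GENCODE M21). Itgb4 is at chr11:115974709-116008412 on the plus strand, Itga6 at chr2:71745616-71858416 on the plus strand, and Col17a1 at chr19:47646344-47692094 on the minus strand. Dst is at chr1:33908225-34308661 on the plus strand, Plec at chr15:76170974-76232574 on the minus strand, and Cd151 at chr7:141467392-141471473 on the plus strand. Dst has 14 protein-coding transcripts whose 3′ ends form 7 clusters over 1 kb apart, so its count merges the epithelial form with others. Plec shares its strand over part of its model with Parp10, which had 1429 and 1651 UMIs in the kept cells, and how reads of the overlap were assigned was not known.

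Promoter sequences were available for 3 of the 6 genes, and stretches of these are shown because Col17a1 and Dst were among the genes that fell most across the bins while Cd151 was the gene that stayed. They are RefSeq sequences on GRCm38.p6, 5′ to 3′ on the gene's own strand, upstream of an annotated start, with the motif that was found in capitals. The Col17a1 stretch (chr19:47692095-47692292, minus strand) holds TATAAA at 2 places. The Dst stretch (chr1:34160010-34160259, plus strand) holds none of the 4 motifs searched. The Cd151 stretch (chr7:141467112-141467361, plus strand) holds the GC box GGGCGG at 2 places.
Col17a1: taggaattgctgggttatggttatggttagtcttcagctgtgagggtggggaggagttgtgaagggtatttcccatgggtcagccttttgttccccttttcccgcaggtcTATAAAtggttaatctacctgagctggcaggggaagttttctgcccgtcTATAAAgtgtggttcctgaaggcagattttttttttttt
Dst: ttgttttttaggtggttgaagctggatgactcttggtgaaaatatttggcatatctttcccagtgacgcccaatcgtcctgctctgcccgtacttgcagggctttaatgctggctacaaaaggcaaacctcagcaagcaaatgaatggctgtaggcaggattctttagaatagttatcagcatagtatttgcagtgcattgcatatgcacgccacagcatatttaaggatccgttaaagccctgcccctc
Cd151: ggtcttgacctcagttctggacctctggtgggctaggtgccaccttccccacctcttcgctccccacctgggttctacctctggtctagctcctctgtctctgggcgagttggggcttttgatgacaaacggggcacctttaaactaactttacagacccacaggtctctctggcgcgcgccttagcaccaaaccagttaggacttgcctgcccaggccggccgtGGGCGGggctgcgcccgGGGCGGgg
The motifs searched on both strands were TATAAA (the TATA box), GGGCGG (the GC box), TGANTCA (an AP-1 site) and GGAATG (a TEAD site). They occur in 12.4%, 32.7%, 6.75% and 12.6% of 32851 RefSeq mouse promoter stretches. The Col17a1 stretch was 46% G and C with 2 CpG pairs, the Dst stretch 45.2% with 5, and the Cd151 stretch 62.4% with 12. The other annotated start of Dst has 4 GC boxes in its upstream stretch, at 68.8% G and C with 22 CpG pairs, and the other start of Cd151 has none of the motifs. Which start is used in these cells was not measured. Itgb4, Itga6 and Plec are named only.

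Among non-cycling cells, 4 of the 6 genes, Itgb4, Itga6, Col17a1 and Dst, fell together and far, Plec fell late and by less, and Cd151 did not pass the size rule in any bin. These calls are on levels scaled to total UMIs. Counted per cell, Plec did not pass the rule in any bin and Cd151 was higher in the last bin, as given below. Itgb4 and Itga6 were the first to pass the size rule, at 80 to 150, and Col17a1, Dst and Plec followed at 150 to 350. The counting intervals of Itgb4, Itga6, Col17a1 and Dst overlapped at 80 to 150, so which of them fell first was not resolved there. The Itga6 call in that bin differed under 10 of 19 alternatives and the Itgb4 call under 3. In cells with 350 or more, Col17a1 kept 6.69% and 7.84% of its level below 40, whereas Cd151 kept 78.5% and 75.5%.

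Itgb4, the chain the cells were sorted on, had 1.34, 1.30, 0.771, 0.347 and 0.121 UMIs per 10000 from the lowest bin to the highest in library 1. Library 2 gave 1.22, 1.05, 0.719, 0.342 and 0.114. The lowest bins were close to each other and each later bin lay under the one before it in both libraries. Itga6, its partner chain, had 3.38, 3.51, 2.22, 1.12 and 0.352 UMIs per 10000 in library 1. In library 2 the levels of Itga6 were 3.24, 3.19, 2.06, 1.10 and 0.348. Itga6 thus held its level up to 80. Itgb4 was a little lower at 40 to 80 in library 2, with a log2 ratio of -0.21 (-0.36 to -0.07). Both chains were lower in every later bin.

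Col17a1 had 3.67, 3.65, 2.45, 0.966 and 0.245 UMIs per 10000 in library 1. The levels of Col17a1 in library 2 were 3.15, 3.47, 2.24, 0.986 and 0.247, with the 40 to 80 bin a little above the one below it in library 2 only. For Dst, library 1 gave 3.55, 3.52, 2.22, 1.20 and 0.445 UMIs per 10000. Library 2 gave 2.997, 3.15, 2.11, 1.12 and 0.407 for Dst, again with no drop before the 80 to 150 bin.

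Plec, the plakin that joins the β4 chain to keratin, had 1.16, 1.11, 1.001, 0.658 and 0.531 UMIs per 10000 in library 1. In library 2 Plec had 1.07, 1.03, 0.784, 0.614 and 0.466. Cd151 had 0.998, 0.961, 0.894, 0.807 and 0.784 UMIs per 10000 in library 1, and in library 2 it had 1.03, 0.982, 0.829, 0.789 and 0.775. Cd151 stepped down a little at each bin, and of these genes only Plec passed 1.5-fold.

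**Figure D1:**
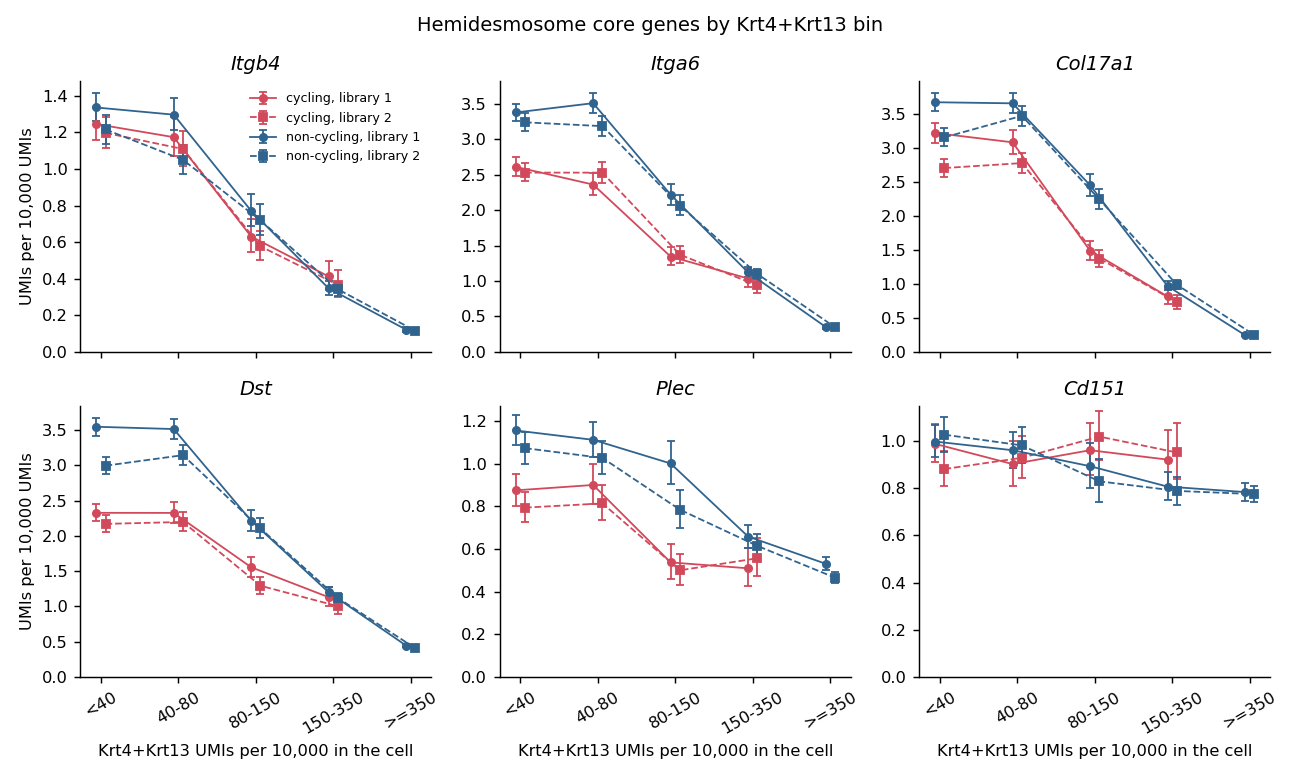
Level of each gene (y axis, UMIs per 10000 UMIs, from 0) in the 5 Krt4+Krt13 bins (x axis), for cycling (4 bins) and non-cycling cells of each library, with 95% exact Poisson bars for counting error. Itgb4, Itga6, Col17a1 and Dst drop from the 80 to 150 bin on, while Cd151 stays between 0.775 and 1.03 in non-cycling cells.

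In cells at 40 to 80 against cells below 40, 0 of the 6 genes passed the rule, with 0.504% of 5355 genes lower and 0.149% higher. At 80 to 150, 2 of the 6 were lower, where 3.72% of 5301 genes were lower and 2.87% higher. Itgb4 differed by a mean log2 ratio of -0.78, with -0.79 in library 1 and -0.76 in library 2. Itga6 differed by -0.63. Dst was next at -0.59, short of 1.5-fold in library 2 with a fold of 1.42. Col17a1 was at -0.54, short of it in both libraries. The counting intervals of these 4 genes overlapped, so which of them fell first was not resolved at 80 to 150. This bin also rested on how cells were ordered and scaled. With Krt4 alone as the ruler, or with bins of equal cell number, none of the 6 was lower there, and with cells ordered by falling Krt5, Krt14 and Krt15 all but Cd151 were. Itgb4 alone was lower with median-of-ratios scaling, with Krt13 alone, or with cells thinned to 3000 UMIs.

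At 150 to 350, 5 of the 6 genes were lower, where 10.2% of 5198 genes were lower and 6.00% higher. The mean log2 ratios were -1.89 for Itgb4, -1.80 for Col17a1, -1.58 for Itga6, -1.49 for Dst and -0.81 for Plec. Cd151 was within the rule at -0.34. Here the counting intervals did separate genes in both libraries: Itgb4 and Col17a1 each lay below Dst, the 4 lay below Plec and Cd151, and Plec lay below Cd151.

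At 350 or more, the same 5 genes were lower, where 26.3% of 4962 genes were lower, 10.1% were higher and the median of all genes was -0.24. These ratios use all UMIs as counted, with no background taken off. Col17a1 had a log2 ratio of -3.90 in library 1 and -3.67 in library 2, a 14.9-fold and a 12.7-fold difference. Itgb4 had -3.46 and -3.41, Itga6 -3.26 and -3.22, and Dst -2.995 and -2.88. Plec had -1.12 and -1.20. Cd151 had -0.35 and -0.41, which placed it at the 40.8th percentile of the genes compared, whereas Col17a1, Itgb4, Itga6 and Dst were at 0.826, 1.11, 1.39 and 1.79. Without cells that carried markers of other types, Itgb4 was at -3.43 and Col17a1 at -3.81. All pairs of the 6 genes were apart beyond counting error in both libraries except Itgb4 and Itga6, and Itgb4 and Col17a1.

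**Figure D2:**
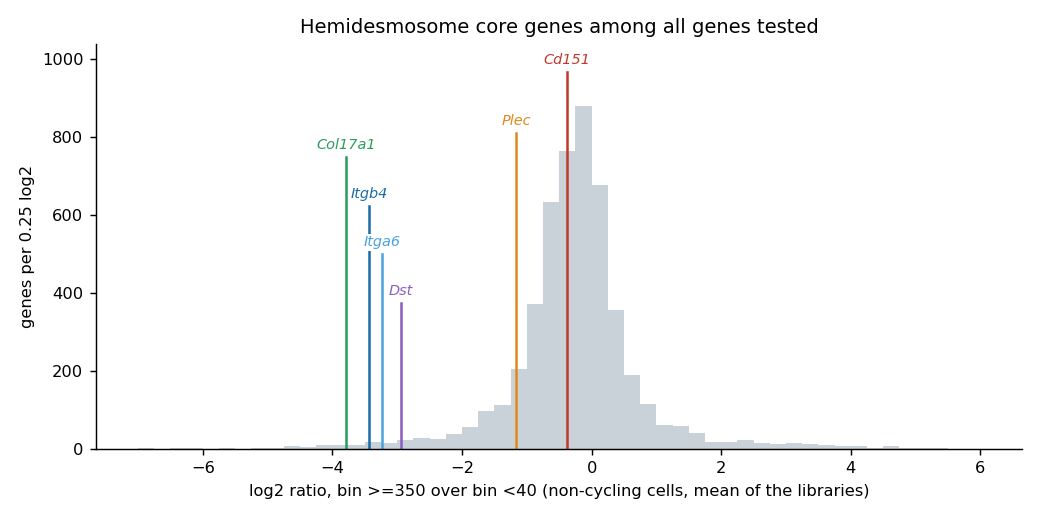
Histogram of log2 ratios of cells at 350 or more against cells below 40, non-cycling, for the 4962 genes compared (x axis log2 ratio, mean of the libraries; y axis number of genes per step of 0.25), with the 6 genes marked. Itgb4, Itga6, Col17a1 and Dst lie in the left tail, Plec nearer the body and Cd151 inside it.

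Scaling bears on the last bins, because total UMIs per cell were larger there. Counted as UMIs per cell with no scaling, an alternative chosen after the rise of total UMIs was seen, Itgb4 was still lower at 350 or more, with 0.193 and 0.153 UMIs per cell, against 0.859 and 0.653 below 40. The log2 ratios per cell were -2.47 for Col17a1, -2.12 for Itgb4, -1.93 for Itga6 and -1.63 for Dst, while the median of all genes was 1.08. Plec was then not lower in that bin: it had 0.844 and 0.625 UMIs per cell at 350 or more, against 0.743 and 0.576 below 40. At 150 to 350 Plec had 0.590 and 0.462 UMIs per cell, a log2 ratio of -0.33, short of 1.5-fold. Cd151 had 1.25 and 1.04 UMIs per cell at 350 or more, against 0.642 and 0.552 below 40, a log2 ratio of 0.94, past 1.5-fold upward. With median-of-ratios scaling the median of all genes was 0.21, the ratio of Cd151 was 0.07, and Plec was still lower at -0.72. That scaling also turned the balance of calls, with 11.8% of genes lower and 22.8% higher, against 26.3% lower and 10.1% higher when scaled to total UMIs.

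The order was also read from the Krt4+Krt13 level at which a gene reached 50% of its level below 40, interpolated between bins. With this ruler Itgb4 reached it first in both libraries, at 128 and 134 UMIs of Krt4+Krt13 per 10000. Col17a1 reached it at 142 and 156, Itga6 at 151 and 151, and Dst at 147 and 170, and their order differed between the libraries. Plec reached it at 427 and 391, well after the others, and Cd151 did not reach it. With 20 groups of equal cell number in place of bins, Itgb4 and Dst both came at 129 in library 1, while in library 2 Itgb4 came first at 138. Plec came last there too, at 418 and 325. The first place of Itgb4 rested on the ruler: with cells ordered by falling Krt5, Krt14 and Krt15, Col17a1 came first at 163, ahead of Itgb4 at 189, Dst at 190.3 and Itga6 at 206 (means of the libraries). With cells ordered by Krt4 alone, Itgb4 and Col17a1 both came at 145, and under the other alternatives Itgb4 was first by the mean of the libraries.

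**Figure D3:**
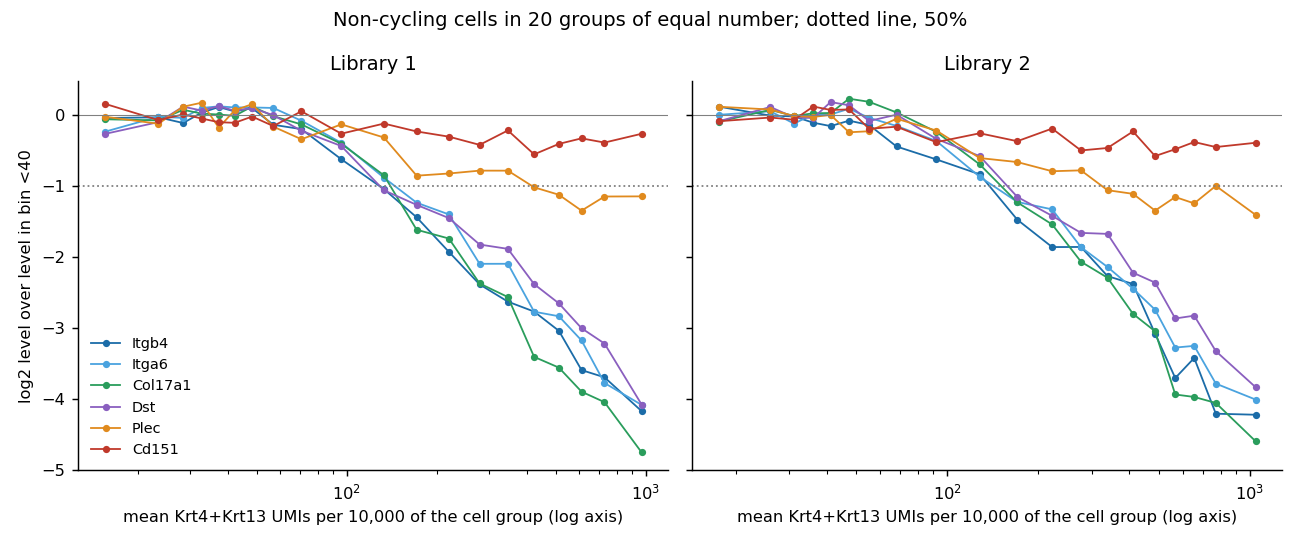
Log2 ratio of each gene's level to its level below 40 (y axis) over the mean Krt4+Krt13 level (x axis, UMIs per 10000, log scale) in 20 groups of non-cycling cells of equal number, in each library; the dotted line marks 50%. Itgb4, Itga6, Col17a1 and Dst cross the line between 129 and 158, Plec later at 418 and 325, and Cd151 does not cross it.

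As the integrin, collagen XVII and Dst transcripts fell, the make-up of the hemidesmosome transcripts turned toward Cd151 and Plec. The 6 genes summed to 14.1, 14.05, 9.55, 5.10 and 2.48 UMIs per 10000 over the bins of library 1, and to 12.7, 12.9, 8.74, 4.95 and 2.36 in library 2. Cd151 made up 31.6% and 32.9% of these UMIs at 350 or more, against 7.09% and 8.09% below 40. Plec made up 21.4% and 19.8% at 350 or more, against 8.20% and 8.44% below 40. The integrin chains kept a steadier ratio to each other: Itgb4 gave 25.6% and 24.7% of the Itga6 and Itgb4 UMIs at 350 or more, against 28.3% and 27.3% below 40. That share was lowest in between, at 150 to 350, with 23.6% (21.3% to 26.1%) and 23.7% (21.4% to 26.2%).

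**Figure D4:**
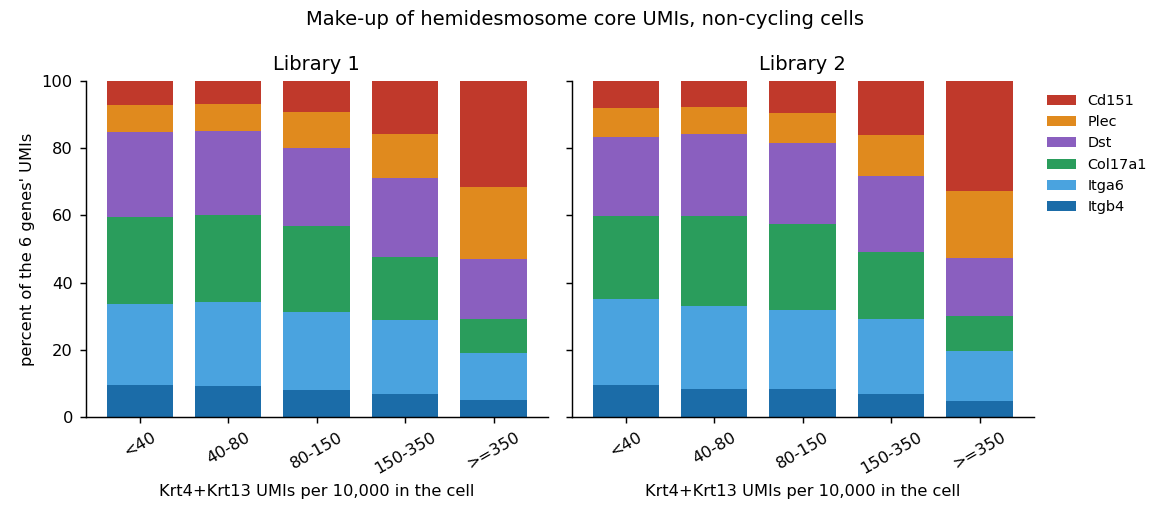
Share of each gene in the summed UMIs of the 6 genes (y axis, %) by Krt4+Krt13 bin (x axis), non-cycling cells of each library, as stacked bars. Cd151 grows to 31.6% and 32.9% at 350 or more, against 7.09% and 8.09% below 40.

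Shares of cells with a UMI were compared at equal depth. After thinning to 3000 UMIs per cell, an Itgb4 UMI was seen in 34.4%, 34.2%, 21.4%, 10.5% and 3.46% of cells from the lowest bin to the highest in library 1, and in 30.7%, 26.6%, 20.1%, 9.51% and 3.48% in library 2. Without thinning, 12.7% of cells at 350 or more had one in library 2, against 45.6% below 40. Cd151 was seen in 20.5% and 19.8% of thinned cells at 350 or more, against 25.3% and 26.7% below 40. None of the 6 genes was seen in 47.7% and 53.5% of thinned cells at 350 or more, against 3.92% and 5.46% below 40. Cells with 3 or more of the genes made up 3.53% and 2.89% at 350 or more, against 57.8% and 51.4% below 40.

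Cells with immune markers, which should lack hemidesmosomes, were set beside these shares. Whether immune cells make any of these transcripts themselves was not tested, so their shares are no sure background. Among the 23 and 39 such cells, thinned alike, Itgb4 was seen in 4.35% and 12.8%, Itga6 in 21.7% and 30.8%, and Col17a1 in 17.4% and 10.3%. At 350 or more, Itga6 was seen in 11.5% and 9.66% and Col17a1 in 6.71% and 6.72%. The shares of those 3 genes at 350 or more were all below the shares in immune cells. Because immune cells also held more Krt14 than that bin, the comparison cannot decide whether the 3 genes are expressed there. As far as their UMIs there are background, the folds, shares kept and order given for 350 or more are limits and not exact values. The immune shares rest on few cells, and 4.35% is 1 cell of 23. Dst was seen in 4.35% and 30.8% of immune cells, against 13.4% and 10.2% of cells at 350 or more. Plec, at 30.4% and 25.6%, was seen more often in immune cells than at 350 or more, where it was in 15.2% and 12.9%. Cd151 was in 0 of the 23, which allows a share of up to 14.8%, and in 10.3% of the 39 immune cells, below its share at 350 or more in both libraries. Before thinning the same immune cells had 8 and 15 Cd151 UMIs, or 0.436 (0.188 to 0.859) and 0.435 (0.244 to 0.718) UMIs per 10000, against 0.784 and 0.775 at 350 or more, so that in library 1 the interval includes the level at 350 or more. Immune cells had a median of 6887 and 7782 UMIs before thinning and also held 11.5 and 27.3 UMIs of Krt14 per 10000, against 4.86 and 5.10 in cells at 350 or more, and the part of free RNA or of doublets in these shares was not tested.

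Among cycling cells, on levels scaled to total UMIs, Itgb4, Itga6 and Col17a1 were lower from 80 to 150 on. Plec passed the rule at 80 to 150 and not at 150 to 350, Dst passed at 150 to 350, and Cd151 did not pass in either bin. Against cycling cells below 40, 0 of the 6 genes were lower at 40 to 80, with 0.144% of 5541 genes lower and 0.343% higher. At 80 to 150, 4 of the 6 were lower, where 4.03% of 5462 genes were lower and 3.24% higher: Col17a1 at -1.05, Itgb4 at -1.02, Itga6 at -0.92 and Plec at -0.69. Dst was at -0.66 and passed in 1 library only, and Cd151 was at 0.08. At 150 to 350, Col17a1 at -1.94, Itgb4 at -1.65, Itga6 at -1.38 and Dst at -1.08 were lower, 4 of 6 where 8.44% of 5424 genes were lower and 5.84% higher, and Plec at -0.65 was short of the rule in 1 library. Cd151 had 0.988, 0.902, 0.961 and 0.921 UMIs per 10000 over these bins in library 1, and 0.881, 0.929, 1.02 and 0.952 in library 2, with no direction. Counted per cell, Cd151 rose past 1.5-fold, from 0.860 and 0.641 UMIs below 40 to 1.34 and 1.17 at 150 to 350. Per cell, Plec (-0.35) and Itga6 (-0.58) fell short of the rule at 80 to 150, while Col17a1 (-0.71) and Itgb4 (-0.68) did not. At 150 to 350 Dst (-0.33) fell short, while Col17a1 (-1.19), Itgb4 (-0.91) and Itga6 (-0.64) did not. The other alternatives were not run for these bins within cycling cells. Only 9 and 16 cycling cells had 350 or more, too few to call. Itgb4 there had 17 UMIs (1.11 per 10000) in library 1 and 12 UMIs (0.359 per 10000) in library 2.

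Set against non-cycling cells of the same bin, cycling cells had less of most members when scaled to total UMIs, by amounts near or under the rule. Cycling cells were also deeper, with a median of 8329 and 6950 UMIs below 40, against 5987.5 and 4942 in non-cycling cells, and 268 and 326 of the non-cycling cells carried S phase genes. Counted per cell, 15 of the 24 ratios over the 4 bins had the other sign and none was lower by the rule: below 40 they were 0.38 for Itgb4, 0.32 for Cd151, 0.23 for Col17a1, 0.07 for Itga6, 0.02 for Plec and -0.10 for Dst. Below 40, 0 of the 6 genes passed, with 3.81% of 5510 genes lower and 9.22% higher. Dst was the furthest down, with 2.33 and 2.17 UMIs per 10000 in cycling cells, against 3.55 and 2.997 in non-cycling cells, a log2 ratio of -0.61 in library 1 and -0.47 in library 2. The mean log2 ratio was -0.42 for Plec, -0.36 for Itga6, -0.21 for Col17a1, -0.12 for Cd151 and -0.06 for Itgb4. Itgb4 was apart from Itga6, Dst and Plec beyond counting error in both libraries, and had 1.25 and 1.20 UMIs per 10000 in cycling cells, against 1.34 and 1.22 in non-cycling cells. The Itgb4 share of the Itga6 and Itgb4 UMIs was 32.3% and 32.1% in cycling cells below 40, against 28.3% and 27.3% in non-cycling cells.

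At 40 to 80, again 0 of the 6 passed, with 2.57% of 5479 genes lower and 8.23% higher, and Dst was at -0.56. At 80 to 150, 3 of the 6 were lower in cycling cells, where 2.58% of 5350 genes were lower and 8.04% higher: Plec at -0.77, Col17a1 at -0.71 and Itga6 at -0.66. Col17a1 had 1.49 and 1.37 UMIs per 10000 in cycling cells there, against 2.45 and 2.24 in non-cycling cells. Itgb4 was at -0.30 and Cd151 at 0.20. With cells ordered by falling Krt5, Krt14 and Krt15 in place of rising Krt4 and Krt13, none of the 6 was lower in that bin, and the ratios were 0.76 for Itgb4, 0.59 for Col17a1, 0.34 for Itga6, 0.19 for Dst and 0.13 for Cd151, with Plec at -0.11. At 150 to 350, 0 of the 6 passed, with 1.52% of 5140 genes lower and 8.56% higher, and the ratios ran from -0.34 for Col17a1 to 0.23 for Cd151. With falling basal keratins, Itgb4 (0.84) and Col17a1 (0.69) were higher in cycling cells there, and counted per cell Cd151 (0.93) and Itgb4 (0.87) were.

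**Figure D5:**
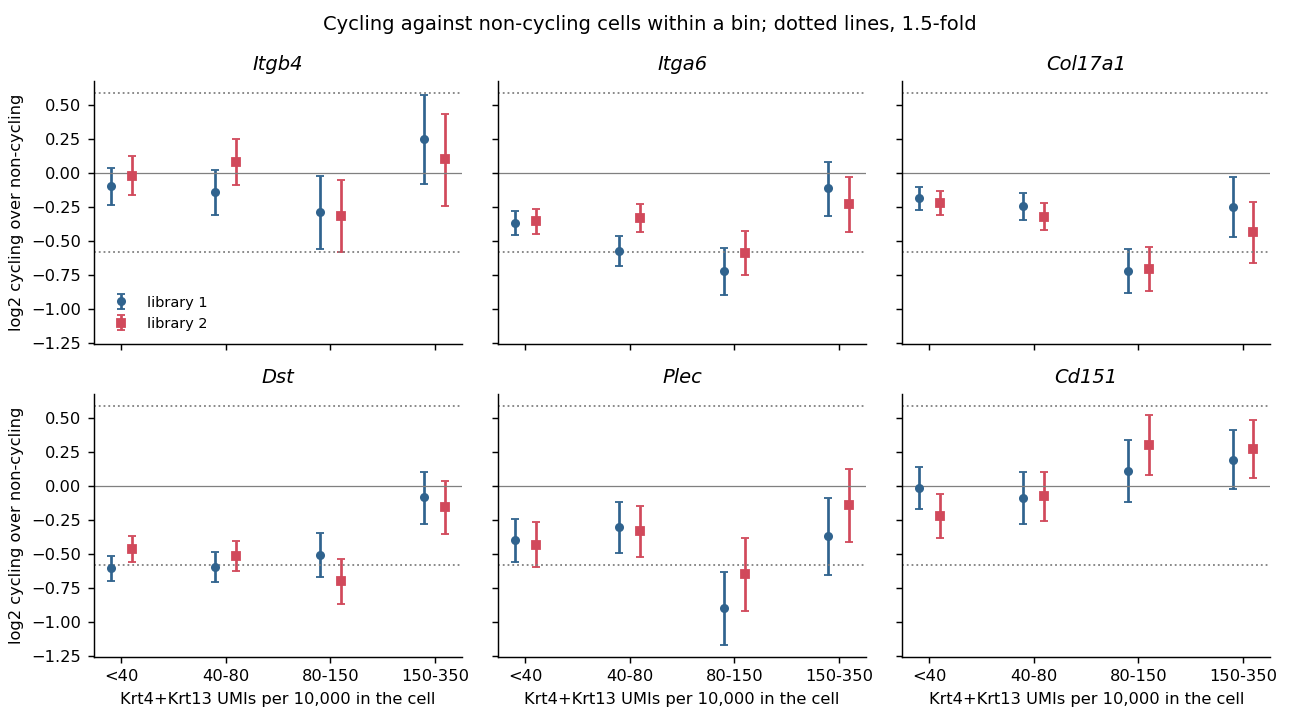
Log2 ratio of cycling over non-cycling cells within each Krt4+Krt13 bin (y axis) for the 6 genes, with 1 point per library and 95% exact intervals for counting error. Plec, Col17a1 and Itga6 lie beyond the dotted 1.5-fold line in both libraries at 80 to 150, and no gene does in both libraries in the other bins drawn.

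The partners of the hemidesmosome were read from lists of related genes, in cells at 350 or more against cells below 40. Their ratios are scaled to total UMIs and were not recomputed under the other scalings. Median-of-ratios scaling and UMIs per cell each move all genes of this comparison up alike, as Cd151 from -0.38 to 0.07 and to 0.94. Calls of lower that pass the rule by less than that shift, as for Itgav, Macf1 and Cd81, thus do not hold under either of them. A gene counted as measured where its level, averaged over both sides, reached 0.2 UMIs per 10000. Lamb3 (0.0344 and 0.0373 at 350 or more), Itgb1 (0.148 and 0.156) and Parva (0.0870 and 0.0760) reached it only through the cells below 40. Evpl, Ppl and the plaque partner Ppfia1 reached it only through the cells at 350 or more. The counts of lower and higher genes in these lists are thus in part set by that minimum. Over all genes of this comparison, 26.3% were lower and 10.1% higher. Of the laminin, collagen VII and basement membrane genes, 1 of 10 was measured, Lamb3, a chain of the laminin that the integrin binds, and it was lower at -4.25. Of 9 other integrins, 2 were measured and both were lower, Itgb1, the β1 chain, at -2.90 and Itgav at -0.80. The 3 basal keratins to which the plaque ties were all lower, Krt14 at -4.50, Krt5 at -3.07 and Krt15 at -1.61. Krt14 had 4.86 and 5.10 UMIs per 10000 at 350 or more, against 111 and 115 below 40.

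The plakin family split when scaled to total UMIs. Of 5 other plakins listed, 4 were measured. Macf1, which links microtubules and actin, was lower at -0.77, a call that rests on that scaling. Desmoplakin (Dsp), envoplakin (Evpl) and periplakin (Ppl), which serve desmosomes and the cornified envelope, were higher at 1.18, 2.13 and 2.52. Dsp had 9.24 and 8.84 UMIs per 10000 at 350 or more, against 4.10 and 3.89 below 40. Among 12 other tetraspanins, 7 were measured, of which 3 were lower and none higher, with a median of -0.08 against -0.24 over all genes. Tspan3 was at -2.05 and Cd81 at -0.81, while Cd9 at 0.36 and Cd82 at 0.30 stayed within the rule, as Cd151 did. Of the plaque and adhesion partners, 10 of 21 were measured, of which 5 were lower and 1 was higher, with a median of -0.74. Fermt1, the kindlin of epithelia, was at -2.37, Parva at -1.96 and the actin linker Vcl at 0.63. Ppfia1 stayed within the rule, with 0.238 and 0.222 UMIs per 10000 at 350 or more, against 0.206 and 0.178 below 40.

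Placed on the same ruler, Lamb3 reached 50% of its level below 40 at 94.2 and 107 UMIs of Krt4+Krt13 per 10000, and Krt14 at 101 and 98.3. Both came before Itgb4 at 128 and 134. Itgb1 reached it at 130 and 144, Fermt1 at 202 and 211, and Krt5 at 263 and 284. These differences in position carry no test.

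The gene whose profile over 9 states was most like that of a member, by Pearson r among 5334 genes, was Slc6a6 for Itgb4 (0.998), Brd3 for Itga6 (0.997) and Brd3 for Col17a1 (0.997). For Dst it was Gga2 (0.997), for Plec S100a6 (0.991) and for Cd151 Myg1 (0.937). Dst and Itga6 were each among the 3 genes most like the other. Pearson r does not weigh the size of a fall. At 350 or more against below 40, Brd3 had a log2 ratio of -1.26, where Itga6 had -3.24 and Col17a1 -3.79. Slc6a6 had -3.80, where Itgb4 had -3.43. The states share libraries, depth and the Krt4+Krt13 ruler, and the values of r are a description only.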

How the data were processed

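Single-cell libraries were made from 1 suspension split into 2 technical replicates. The deposited values are counts of UMIs per gene and barcode, made by the authors with Cell Ranger on mm10, per the submitters' processing notes, which give no version here. Gene models came from GENCODE M21 on GRCm38, to which 27645 of 27998 genes (98.7%) were matched by identifier. Counts were summed over the cells of each bin in each library with Python 3.11.15, numpy 2.4.6, scipy 1.17.1 and pandas 2.3.3, and scaled to 10000 UMIs. The bins use Krt4 and Krt13, which are no members. Ratios carry 95% exact conditional binomial intervals and levels exact Poisson intervals. The scripts were tested on simulated data. Doublets were not removed. Leaving out the 5% of cells with most UMIs was an alternative.

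The members, lists and alternatives were chosen with earlier results of these data known. Named partners are the 2 lowest and 2 highest measured genes of each list in cells at 350 or more against cells below 40. Genes of like profile are the 3 with the highest r per member, with 0.1 UMIs per 10000 added before the log2, of which the text gives mostly the first. Kept cells held 66458750 UMIs in library 1 and 71569412 in library 2.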

Additional observations from a re-analysis of the deposited data

Results flagged for a closer look

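Some log2 ratios of cycling over non-cycling cells ran opposite ways in different Krt4+Krt13 bins in both libraries, and these differences were not tested. Many of the ratios lay near 0. The counting intervals of Itgb4 included 0 in both libraries below 40 and at 150 to 350, and not at 80 to 150. Those of Cd151 included 0 in each of these bins in library 1, and in library 2 only at 40 to 80. For Itgb4 the ratio at 150 to 350 exceeded that below 40 by 0.24 and that at 80 to 150 by 0.48. For Cd151 the ratio at 80 to 150 exceeded that below 40 by 0.32 and that at 40 to 80 by 0.29. The Cd151 ratio at 150 to 350 exceeded these by 0.35 and 0.32.

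The 821 barcodes left out for over 10% mitochondrial UMIs also held hemidesmosome transcripts, with 11.4 UMIs of the 6 genes per 10000 in the 308 barcodes of library 1 and 10.8 in the 513 of library 2. Cd151 was at 0.539 and 0.718 there, and Krt4 and Krt13 summed to 184 and 173.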

How the results depend on the processing

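The count of members lower at 350 or more and at 150 to 350 stayed within 1.5 times of 5 under all alternatives run. At 80 to 150, where 2 were lower, the count was 0 with a 2-fold rule, with Krt4 alone, with equal bins and with UMIs per cell. It was 1 with the mean over cells, median-of-ratios scaling, a total without Krt4 and Krt13, thinned cells, at most 5% mitochondrial UMIs, Krt13 alone or cycling from 5, and 5 with falling basal keratins. For cycling against non-cycling cells at 80 to 150, where 3 were lower, it was 0 with a 2-fold rule, Krt4 alone, falling basal keratins or UMIs per cell, and 1 with at most 5% mitochondrial UMIs or cycling from 20. Below 40 and at 40 to 80 the count of 0 ran from 0 to 1 when a library was left out, with Dst lower in library 1 alone. Of the ratios past the rule, those that changed sign were Col17a1 (0.59) and Itga6 (0.34), cycling against non-cycling at 80 to 150 with falling basal keratins, and Plec at 350 or more (0.15) in UMIs per cell. Counting ratios within the rule too, 11 of 24 cycling ratios changed sign with falling basal keratins (2 of the 24 then higher, 0 lower) and 15 of 24 in UMIs per cell (3 higher, 0 lower). Of 24 bin ratios, 5 changed sign in UMIs per cell, where Cd151 at 350 or more was higher (0.94), and at most 3 did under any other alternative, all of them within the rule. The causes were not tested.

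A 2-fold rule lowered the share of all genes lower at 350 or more to 12.3%, and no minimum level gave 45.1%, against 26.3%. At 150 to 350 these were 4.75% and 18.2%, against 10.2%, at 80 to 150 1.30% and 7.86%, against 3.72%, and at 40 to 80 0.224% and 5.46%, against 0.504%. For cycling against non-cycling cells they were 0.944% and 9.06% below 40, 0.548% and 5.06% at 40 to 80, 0.673% and 6.34% at 80 to 150, and 0.311% and 3.57% at 150 to 350. No paired analysis was possible because there is 1 group. Cell number, not depth, limited the cycling cells at 350 or more (9 and 16) and the immune cells (23 and 39).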
